A study of Mus musculus with 6 samples.

Results

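Genes that mark monocytes, macrophages and dendritic cells were followed in sorted cells that the labels call ST-HSC, the short-term stem cells of the blood system, a bone marrow population. The 9 genes, taken by symbol from a deposited table of 53677 gene symbols, were Lyz1, Lyz2, Cd68, Adgre1, Ly6c2, Ms4a6c, Cd209a, Itgax and Siglech, and all 9 were found. RNA came from 3 wild-type mice (WT, genotype label dnTCF4-/-) and 3 mice expressing dnTCF4, a dominant-negative TCF4 (genotype label dnTCF4+/+), all on the C57BL/6J background. Cells of both groups were sorted for Kit and CD48 on the surface and for the absence of lineage markers and CD150. The labels give neither the age and sex of the mice, nor the promoter or the cells that drive dnTCF4, nor the antibodies of the lineage cocktail. The comparison asked how RNA of these cells differs when the factor is blocked. Values are RPKM, read counts divided by gene length and by the total counted in the library, so levels of different genes can be set side by side.

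Monocytes, macrophages and dendritic cells are phagocytes and sentinels of the immune system that descend from bone marrow progenitors through stages shared with granulocytes. Progenitors already transcribe some genes of the lineages they can enter, a state called lineage priming, so RNA of a myeloid gene in this sort does not need a mature cell. Lysozyme breaks down bacterial cell walls and is made by monocytes, macrophages and neutrophils alike. Dendritic cells fall into conventional cells, which present antigen to T cells, and plasmacytoid cells, which make type I interferon. The protein called TCF4 in the label dnTCF4 is encoded by Tcf7l2, while the gene with the symbol Tcf4 encodes E2-2, the factor that directs plasmacytoid dendritic cells.

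Libraries held 57400000 to 110900000 counted reads, and 11326 genes reached a mean of 1 RPKM over the 6 libraries and were tested. Kit had 47.3, 83.7 and 61.7 RPKM in the WT libraries against 74.8, 97.1 and 35.5 in the dnTCF4 libraries (replicates 1, 2 and 3), and Cd48 was at 813 RPKM or more in each library. Slamf1, which encodes CD150, was at 0.744 to 1.18 RPKM. Tcf7l2 had 1.56, 1.29 and 1.69 RPKM in the WT libraries against 2.15, 1.99 and 2.80 in the dnTCF4 libraries, and how many of these reads come from the transgene cannot be told. Immunoglobulin genes took 25.5% to 44.1% of summed RPKM in WT and 3.27% to 6.33% in dnTCF4. RPKM divides by all counted reads, immunoglobulin reads included. The median log2 fold change of the genes tested was 0.14, and it was -0.05 under median ratio scaling and -0.02 when immunoglobulin genes were left out. Replicate 1 of both genotypes stood apart from replicates 2 and 3 in carrying Y-linked RNA (Ddx3y at 30.5 and 24.8 RPKM in WT and dnTCF4, listed at 0 in the other 4 libraries).

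Of the 9 genes, 7 had a mean of at least 1 RPKM and were tested. Lyz2, Cd68, Adgre1, Ms4a6c and Cd209a had all 3 dnTCF4 values above all 3 WT values, by 1.41-fold (Ms4a6c) to 2.99-fold (Cd209a) in the mean. Ly6c2 was lower in dnTCF4 in each of 3 pairs of libraries with the same number, though its groups overlapped. The share of all genes lower in every pair was not counted. Siglech, Itgax and Lyz1 showed no separation of the genotypes. In the limma fit, 0 of the 7 passed an adjusted p of 0.05, and 4 (Lyz2, Cd68, Adgre1 and Cd209a) had an unadjusted p under 0.05. The background was 0.3% of all genes tested called (0.0441% higher and 0.256% lower) and 9.62% at an unadjusted p under 0.05 (7.52% higher). Groups with every dnTCF4 value above every WT value made up 5 of the 7, against 15.4% of all genes tested. Genes of this kind are higher in every pair by definition, so the count by pair (the same 5, against 37.3%) is not a separate result. The other direction, every dnTCF4 value below every WT value, held for 0 of the 7 and 2.26% of genes. Limma with voom on recovered reads, which covered 6 of the 7, also called 0 and had 3 at an unadjusted p under 0.05 (Lyz2, Cd68 and Cd209a), where 0.14% and 9.37% of all genes did. Under either rescaling (median ratio, or immunoglobulin genes dropped), 3 of the 7 were higher (Lyz2, Adgre1 and Cd209a) and 1 lower (Ly6c2) at an unadjusted p under 0.05, against 6.17% and 5.44% of all genes in either direction. The members also had 0 calls under median ratio scaling (0.16% of all genes), with immunoglobulin genes left out (0%), with a replicate block (0.433%) and with library weights (0.759%). Markers of other cell types went in both directions in the same libraries. Among those tested, basophil and mast cell markers stood at 4 higher and 4 lower in dnTCF4. T and NK cell markers stood at 2 and 4, and B and plasma cell markers at 1 and 10. Mcpt8, Prss34 and Fcer1a, of the basophil and mast cell list, had every dnTCF4 value below every WT value. They averaged 105, 162 and 23.6 RPKM over WT and 51.9, 56.8 and 11.7 over dnTCF4. Their limma adjusted p was 0.20, 0.19 and 0.50. The 4 higher genes of that list were Il4, Cpa3, Ms4a2 and Gata2, all with overlapping groups. Il4 and Cpa3 averaged 1.54 ± 1.54 and 161 ± 33.4 RPKM over WT and 3.44 ± 0.502 and 245 ± 74.7 over dnTCF4 (limma adjusted p = 0.49 and 0.55). Erythroblast markers were higher in 6 of 6 tested, 5 of them with no overlap. With no filter, 8 of 10 were higher and 2 lower. The 10 summed to 639 to 687 RPKM in WT and 996 to 1236 in dnTCF4. Most of that sum was Car2, with 669, 616 and 629 RPKM in the WT libraries against 1102, 923 and 1140 in the dnTCF4 libraries. Rhag, an erythroid membrane protein, and Pf4, a chemokine of megakaryocytes, averaged 3.92 ± 0.670 and 51.5 ± 10.1 RPKM over WT and 16.9 ± 6.30 and 131 ± 20.4 over dnTCF4 (limma adjusted p = 0.076 and 0.084). The part of such cells in the values of the members was not tested. These are bulk samples, so more cells of a type and more RNA per cell cannot be told apart.

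**Figure D1:**
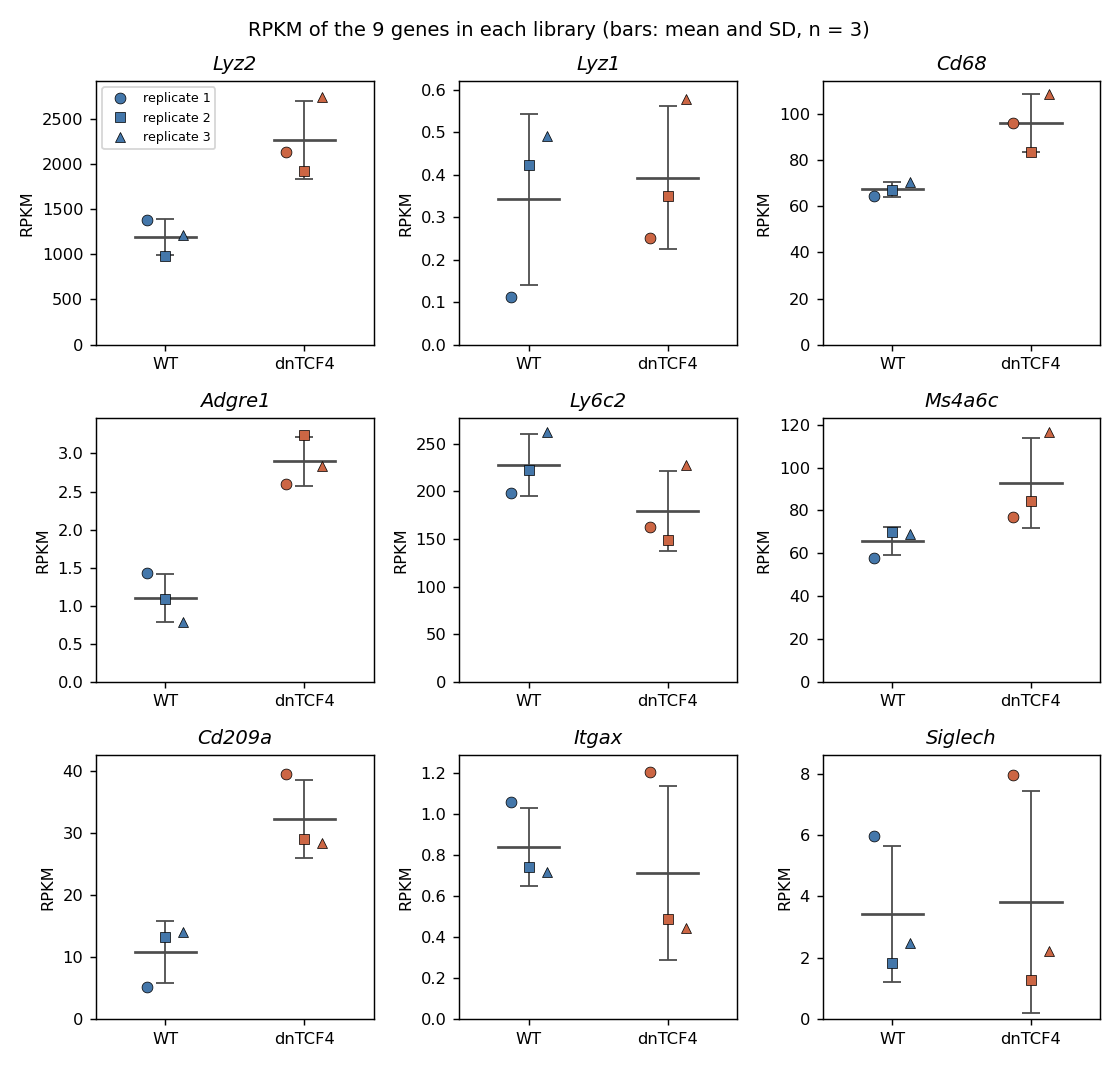
RPKM of the 9 genes in each library, 1 panel per gene, with WT in blue and dnTCF4 in orange, the marker giving the replicate number, and lines and bars giving the mean and SD (n = 3 each). Lyz2, Cd68, Adgre1, Ms4a6c and Cd209a do not overlap between the genotypes, and replicate 1 holds the highest Siglech and Itgax values of both genotypes.

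Levels spread widely. Lyz2 had a mean of 1726 RPKM over the 6 libraries, which ranked 22 among all genes of the table and was 8.48 times that of Ly6c2 (204 RPKM). Cd68 and Ms4a6c followed at 81.8 and 79.2 RPKM and could not be ordered, each being the higher of the pair in 3 of 6 libraries. Cd209a was at 21.6 RPKM, below both in 6 of 6 libraries, and above Siglech in 5 of 6. Siglech (3.62 RPKM) and Adgre1 (2.00 RPKM) kept their order in 4 of 6 libraries. Itgax (0.777 RPKM) and Lyz1 (0.368 RPKM) closed the row, with Itgax the higher in 5 of 6.

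Lyz2 (ENSMUSG00000069516.8, GRCm38 chromosome 10, 117277331 to 117282321, minus strand) encodes the lysozyme of myeloid cells. It had 1374, 984 and 1211 RPKM in the WT libraries (replicates 1, 2 and 3, the order used throughout), against 2126, 1917 and 2744 in the dnTCF4 libraries. Every dnTCF4 library lay above every WT library, and dnTCF4 replicate 3 was the highest. The means were 1189.8 ± 196 and 2262 ± 430.0 RPKM (SD, n = 3 each), a log2 fold change of 0.92 (SE 0.21, 95% confidence interval 0.43 to 1.41, limma adjusted p = 0.18, with 0.063 to 0.60 over 15 alternatives). Neutrophils make lysozyme too, and of 12 neutrophil markers tested 10 were higher in dnTCF4 and 2 lower (Cxcr2 and Padi4), with 0 called. At an unadjusted p under 0.05 there were 9, all higher. That count was 2 without WT replicate 1, 2 without dnTCF4 replicate 3 and 10 without WT replicate 3. It was 1 with replicates 2 and 3 only. The 13 neutrophil markers summed to 632 to 3143 RPKM in WT and 3101 to 7638 in dnTCF4, and 0 of them was at 0 in all libraries. S100a8, a calcium-binding protein of neutrophils, had 263, 232 and 1026 RPKM in the WT libraries against 1106, 1356 and 2948 in the dnTCF4 libraries. Replicate 3 held the highest neutrophil sum of both genotypes. Its Lyz2 value was also the highest of the 3 in dnTCF4, and in WT it lay between those of replicates 1 and 2. The part of neutrophil RNA in the Lyz2 difference was not tested.

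Lyz1 (ENSMUSG00000069515.6, GRCm38 chromosome 10, 117287797 to 117292868, minus strand), the neighbouring copy known as the lysozyme of intestinal Paneth cells, had 0.112, 0.423 and 0.491 RPKM in the WT libraries against 0.251, 0.350 and 0.579 in the dnTCF4 libraries. These values stand on 9, 33 and 42 reads in WT and 20, 49 and 42 in dnTCF4, and the genotypes overlap. Its mean was under 1 RPKM, so it was not tested. Lyz1 made up 0.00817%, 0.0430% and 0.0405% of summed lysozyme RPKM in WT, and 0.0118%, 0.0182% and 0.0211% in dnTCF4. The mean share was 0.0306% ± 0.0194 for WT against 0.0171% ± 0.00477 for dnTCF4 (SD, n = 3 each, two-sided exact permutation test p = 0.4, where 0.1 is the smallest possible). Counting error alone gives the share of reads in WT replicate 1 a 95% exact binomial interval of 0.00359% to 0.0149%. Of the 50-base words in Lyz1 transcripts, 16.1% also lie in Lyz2 transcripts, so a few Lyz2 reads placed on Lyz1 would matter at these counts, and the Lyz1 values are uncertain. Sequence upstream of both genes is shown because their RNA differs at least 2327-fold in each library while their flanks resemble each other. The bases run 5′ to 3′ on the minus strand of GRCm38.p6 and lie before the start sites annotated by RefSeq, the source of the letters, and by GENCODE, for Lyz1 chr10:117292869-117293118 and for Lyz2 chr10:117282322-117282522, and capitals mark a match to the C/EBP letters TTGCNNAA on either strand.
Lyz1: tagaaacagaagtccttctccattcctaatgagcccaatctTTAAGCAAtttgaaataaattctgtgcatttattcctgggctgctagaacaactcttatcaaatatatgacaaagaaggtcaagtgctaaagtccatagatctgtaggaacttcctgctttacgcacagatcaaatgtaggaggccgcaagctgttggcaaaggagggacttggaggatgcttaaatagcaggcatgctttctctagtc
Lyz2: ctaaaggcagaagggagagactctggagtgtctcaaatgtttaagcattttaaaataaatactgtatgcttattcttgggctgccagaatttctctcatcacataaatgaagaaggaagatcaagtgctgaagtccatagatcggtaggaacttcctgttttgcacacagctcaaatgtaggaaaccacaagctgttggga
A local alignment of these stretches had 151 identical bases in 202 columns (74.8%). The C/EBP match lies in the flank of Lyz1, the copy with the lower RNA level, and no match stands in the bases shown for Lyz2. The letters stand in 9.56% of all 32851 promoter windows of 250 bases.

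Cd68 (ENSMUSG00000018774.13, GRCm38 chromosome 11, 69664213 to 69666153, minus strand) encodes macrosialin, a glycoprotein of the lysosomes and endosomes of phagocytes. It had 64.3, 67.1 and 70.5 RPKM in the WT libraries against 96.4, 83.7 and 108.7 in the dnTCF4 libraries, with a gap between the groups. The means were 67.3 ± 3.08 and 96.3 ± 12.5 RPKM (SD, n = 3 each), a log2 fold change of 0.50 (SE 0.17, limma adjusted p = 0.42, with 0.20 to 0.99 over 15 alternatives). It came to 0.27 under median ratio scaling and to 0.30 when immunoglobulin genes were left out, where the groups still did not overlap. The flank of Cd68 is printed because it is one of 3 among the 8 genes with a promoter window that hold a C/EBP match, next to Lyz1 and Siglech (minus strand, chr11:69666171-69666420, match in capitals).
Cd68: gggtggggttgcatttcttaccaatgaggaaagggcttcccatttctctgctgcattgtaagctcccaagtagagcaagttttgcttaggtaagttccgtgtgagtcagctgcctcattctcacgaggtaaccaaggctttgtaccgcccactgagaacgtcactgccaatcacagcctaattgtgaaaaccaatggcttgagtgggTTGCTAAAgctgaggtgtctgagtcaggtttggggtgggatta

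Adgre1 (ENSMUSG00000004730.15, GRCm38 chromosome 17, 57358691 to 57483527, plus strand) encodes F4/80, the surface receptor by which mouse macrophages are usually recognised. It had 1.43, 1.09 and 0.787 RPKM in the WT libraries against 2.60, 3.24 and 2.84 in the dnTCF4 libraries, and the groups were well apart. The means were 1.10 ± 0.320 and 2.90 ± 0.321 RPKM (SD, n = 3 each), 2.63 times as high in dnTCF4. On the log2(RPKM + 1) scale the difference was 0.90 (SE 0.17, 95% confidence interval 0.49 to 1.30, limma adjusted p = 0.14, with 0.055 to 0.39 over 13 alternatives). Adgre1 is close to the pseudocount, so this value understates the change, and with a pseudocount of 0.1 it was 1.35. Adgre4, a receptor of the same family, stayed under the mean needed for testing. Its WT values spanned 0.329 to 0.371 RPKM, its dnTCF4 values 0.873 to 1.55. Adgre5, a family member that was tested, had the lower mean under dnTCF4 (2.41 ± 0.808 RPKM, against 3.74 ± 1.63 for WT). Its groups overlapped (difference on the log2 scale -0.45, limma adjusted p = 0.67).

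Ly6c2 (ENSMUSG00000022584.14, GRCm38 chromosome 15, 75108158 to 75111970, minus strand) encodes an Ly6C antigen, the mark of classical monocytes, which is also carried by their progenitors. It had 198, 222 and 262 RPKM in the WT libraries against 162, 149 and 227 in the dnTCF4 libraries, where dnTCF4 replicate 3 makes the groups overlap while each dnTCF4 library lay below the WT library of its number. The means were 228 ± 32.4 and 179 ± 42.0 RPKM (SD, n = 3 each), a log2 fold change of -0.36 (SE 0.22, 95% confidence interval -0.87 to 0.16, limma adjusted p = 0.65, with 0.23 to 0.99 over 15 alternatives). Under median ratio scaling it was -0.59, when immunoglobulin genes were left out -0.56, and without dnTCF4 replicate 3 it was -0.54. Under both scalings the groups no longer overlapped, with every dnTCF4 value below every WT value, as for 6.18% and 4.72% of all genes tested. Under the same scalings Lyz2, Cd68, Adgre1 and Cd209a kept every dnTCF4 value above every WT value, as for 5.09% and 5.9% of genes, and Ms4a6c overlapped. Ly6c1, a near copy of Ly6c2, was at 0.222 to 1.65 RPKM, and 14.5% of the 50-base words of Ly6c2 transcripts also lie in those of other genes, mainly Ly6c1. Ly6c2 was the only one of the 8 promoter windows to hold the PU.1 letters GAGGAAGT on either strand, which stand in 2.44% of all windows (minus strand, chr15:75111972-75112221, match in capitals).
Ly6c2: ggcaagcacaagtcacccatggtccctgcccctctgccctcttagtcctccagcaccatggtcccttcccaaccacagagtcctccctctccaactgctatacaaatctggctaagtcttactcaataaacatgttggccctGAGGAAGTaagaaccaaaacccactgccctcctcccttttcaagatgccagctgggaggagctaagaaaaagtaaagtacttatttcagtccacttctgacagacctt
None of the 8 windows held the TCF/LEF letters ATCAAAG or TTCAAAG, which stand in 7.48% of all windows, nor the ISRE or IRF-ETS motifs (2.98% and 2.3% of all windows). A match is a description of these letters and not a binding site.

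Ms4a6c (ENSMUSG00000079419.4, GRCm38 chromosome 19, 11469366 to 11482192, plus strand) belongs to the MS4A family of membrane proteins with 4 membrane spans and is found in monocytes and macrophages. It had 57.9, 70.0 and 69.1 RPKM in the WT libraries against 77.1, 84.4 and 116.6 in the dnTCF4 libraries, and the groups did not overlap in the deposited values. The means were 65.7 ± 6.71 and 92.7 ± 21.0 RPKM (SD, n = 3 each), a log2 fold change of 0.47 (SE 0.21, limma adjusted p = 0.54, with 0.35 to 0.99 over 15 alternatives), and 0.24 after median ratio scaling. An antisense transcript, BE692007, overlaps the gene. The library chemistry does not mark strand, so reads of the overlap cannot be told apart, and 51.4% of the 50-base words of Ms4a6c lie in BE692007 and other genes. BE692007 itself averaged 4.91 ± 1.30 RPKM over WT and 5.26 ± 1.69 over dnTCF4.

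Cd209a (ENSMUSG00000031494.7, GRCm38 chromosome 8, 3743397 to 3748984, minus strand) encodes the mouse relative of DC-SIGN, a lectin of monocyte-derived and conventional dendritic cells. Among the 7 tested genes its difference was the largest under all of these fits with the exception of the one restricted to replicates 2 and 3, where Lyz2 (1.07) and Adgre1 (1.06) were above Cd209a (1.02). It had 5.11, 13.3 and 14.1 RPKM in the WT libraries against 39.6, 29.1 and 28.4 in the dnTCF4 libraries. WT replicate 1 was the lowest and dnTCF4 replicate 1 the highest, so pair 1 showed the widest gap. The means were 10.8 ± 4.96 and 32.4 ± 6.30 RPKM (SD, n = 3 each), a log2 fold change of 1.59 (SE 0.37, 95% confidence interval 0.73 to 2.45, limma adjusted p = 0.19, with 0.084 to 0.43 over 15 alternatives). With replicates 2 and 3 only, it was 1.02. Its neighbour in the family, Cd209d, had the same arrangement at a lower level, with 0.446, 0.740 and 1.40 RPKM in the WT libraries against 7.49, 1.83 and 2.14 in the dnTCF4 libraries (difference on the log2 scale 1.21, limma adjusted p = 0.44). Cd209b was listed at 0 in all 6 libraries. Cd209c, Cd209e, Cd209f and Cd209g each averaged under 1 RPKM, and their groups overlapped.

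Itgax (ENSMUSG00000030789.9, GRCm38 chromosome 7, 128129547 to 128150657, plus strand) encodes CD11c, the integrin chain by which dendritic cells are usually gated. It had 1.06, 0.742 and 0.720 RPKM in the WT libraries against 1.21, 0.488 and 0.446 in the dnTCF4 libraries, with overlapping groups, and its mean fell short of the filter. In the fit with no filter its log2 fold change was -0.13 and that of Lyz1 0.06 (limma adjusted p = 0.85 and 0.90). Siglech (ENSMUSG00000051504.18, GRCm38 chromosome 7, 55768178 to 55778925, plus strand) encodes a lectin of plasmacytoid dendritic cells. It had 5.98, 1.84 and 2.48 RPKM in the WT libraries against 7.97, 1.27 and 2.20 in the dnTCF4 libraries. Replicate 1 was the highest library of both genotypes for Siglech and for Itgax, and neither gene had all values of one genotype on one side of the other. The means of Siglech were 3.43 ± 2.23 and 3.81 ± 3.63 RPKM (SD, n = 3 each), a log2 fold change of -0.03 (SE 0.55, 95% confidence interval -1.32 to 1.26, limma adjusted p = 0.98). The interval is wide, and the sign turned in 4 of 14 alternatives.

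**Figure D2:**
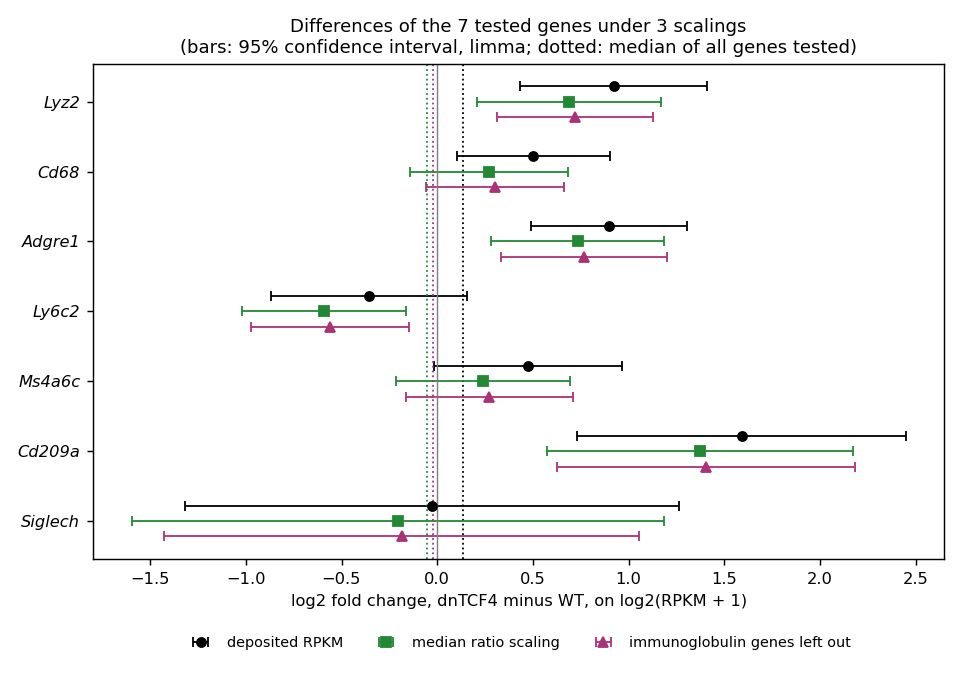
Log2 fold change (dnTCF4 minus WT, on log2(RPKM + 1), horizontal axis) of the 7 tested genes with 95% confidence intervals from limma, for the deposited values and both rescalings (median ratio, and immunoglobulin genes left out), dotted lines giving the median of all genes tested. Both rescalings move every gene to lower values, Cd68 to 0.27 and 0.30 and Ly6c2 to -0.59 and -0.56, with intervals above 0 for Lyz2, Adgre1 and Cd209a, below 0 for Ly6c2 and across 0 for Cd68.

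Other genes of the same cell types were taken from lists. Among 30 monocyte genes, 25 were tested, of which 18 had higher and 7 lower values in dnTCF4. The median log2 fold change was 0.35, against 0.14 and 68.5% higher for all genes tested, and 0 were called by limma, with 9 at an unadjusted p under 0.05, all higher. By voom 0 genes of the monocyte, macrophage, dendritic cell and relatives lists were called. After median ratio scaling the monocyte genes stood at 13 higher and 12 lower, with a median of 0.16 and with 4 higher and 2 lower at an unadjusted p under 0.05. With immunoglobulin genes left out, 6 were higher and 1 lower at that p. Ifi30, a lysosomal thiol reductase, averaged 14.5 ± 2.35 RPKM over WT and 31.2 ± 6.82 over dnTCF4 (limma adjusted p = 0.16). Ms4a4c, which like Ms4a6c is an MS4A family gene, was at 11.6 ± 1.98 and 22.1 ± 1.76 (limma adjusted p = 0.16), and Klf4, a transcription factor of monocytes, at 1.27 ± 0.0325 and 2.64 ± 0.456 (limma adjusted p = 0.19). Values of the genotypes overlapped for the receptor that defines the lineage. Csf1r, the receptor for macrophage colony-stimulating factor, had 3.92, 10.8 and 6.74 RPKM in the WT libraries against 5.37, 7.15 and 2.37 in the dnTCF4 libraries. Irf8, a factor needed for monocytes and dendritic cells, was at 5.76 ± 1.25 and 5.23 ± 1.64 RPKM. Csf1r and Irf8 were picked for mention after their values were seen.

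Macrophage genes spanned a wide range of levels. Of 24, 15 had a mean under 1 RPKM, and the means of Mertk, Marco, Timd4 and Siglec1 were under 0.1 RPKM. Others were detected at higher levels: Cd163, the scavenger receptor for hemoglobin, had a mean of 9.37 RPKM over the 6 libraries, the lipid carrier gene Apoe 6.23 and the complement gene C1qb 2.75, and the genotypes overlapped for all 3. These genes were picked after their values were seen. Of the 9 tested, 6 were higher and 3 lower in dnTCF4, 0 were called and 3 had an unadjusted p under 0.05, all higher. The median log2 fold change of the list was 0.35. After median ratio scaling 8 were tested, with a median of 0.12. Spic, a factor of red pulp and bone marrow macrophages, averaged 1.20 ± 0.345 RPKM over WT and 2.58 ± 0.190 over dnTCF4 (limma adjusted p = 0.20). Vcam1, an adhesion molecule, averaged 0.637 ± 0.291 RPKM and 1.39 ± 0.251 (limma adjusted p = 0.37). Clec7a, the receptor for fungal glucans, was at 10.5 ± 2.51 and 19.5 ± 5.08 (limma adjusted p = 0.35). Summed over all 24, macrophage genes took 43.8 to 55.4 RPKM in WT and 55.8 to 66.2 in dnTCF4, in the deposited values. Clec7a (10.5 and 19.5 in the mean) is part of these sums. The 3 tested genes with lower values were C1qb, Apoe and Itgam.

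Conventional dendritic cell genes lay on both sides of 0. Of 15 tested among 19, 10 had higher and 5 lower values in dnTCF4, and 0 were called, with 1 higher and 2 lower at an unadjusted p under 0.05. The median log2 fold change was 0.09, or -0.05 with 6 higher after median ratio scaling. Clec10a, a lectin receptor for galactose sugars, had 7.37, 7.68 and 9.33 RPKM in the WT libraries against 11.4, 10.6 and 15.8 in the dnTCF4 libraries (difference on the log2 scale 0.56, limma adjusted p = 0.46). Xcr1 and Clec9a, which mark cross-presenting cells and were picked after their values were seen, were at 1.18 ± 0.623 and 1.27 ± 0.293 RPKM and at 1.29 ± 0.810 and 1.68 ± 0.328. The factor Zbtb46 was at 0.126 to 0.324 RPKM. Cd74, the invariant chain of MHC class II, was lower, with 752, 780.5 and 605 RPKM in the WT libraries against 536, 285 and 247 in the dnTCF4 libraries (difference on the log2 scale -1.07, limma adjusted p = 0.31). Irf4 was at 1.72 ± 0.239 and 0.449 ± 0.0847 RPKM in WT and dnTCF4 (difference on the log2 scale -0.91, limma adjusted p = 0.079). It was called after median ratio scaling (adjusted p = 0.049) and with library weights (0.026) and not under the other alternatives that tested it, such as immunoglobulin genes left out (0.16), no filter (0.27) and replicates 2 and 3 only (0.34). Cd74 and Irf4 are also expressed by B and plasma cells, whose markers Ighm and Igkc fell from 11319 ± 2107 to 1910.1 ± 768 RPKM and from 51205 ± 19881 to 6697 ± 2654 (SD, n = 3 each, limma adjusted p = 0.042 for both). The 15 B and plasma cell markers, of which Irf4 is one, summed to 50691 to 95672 RPKM in WT and 5073 to 11647 in dnTCF4, and their part in the Cd74 and Irf4 values was not tested.

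**Figure D3:**
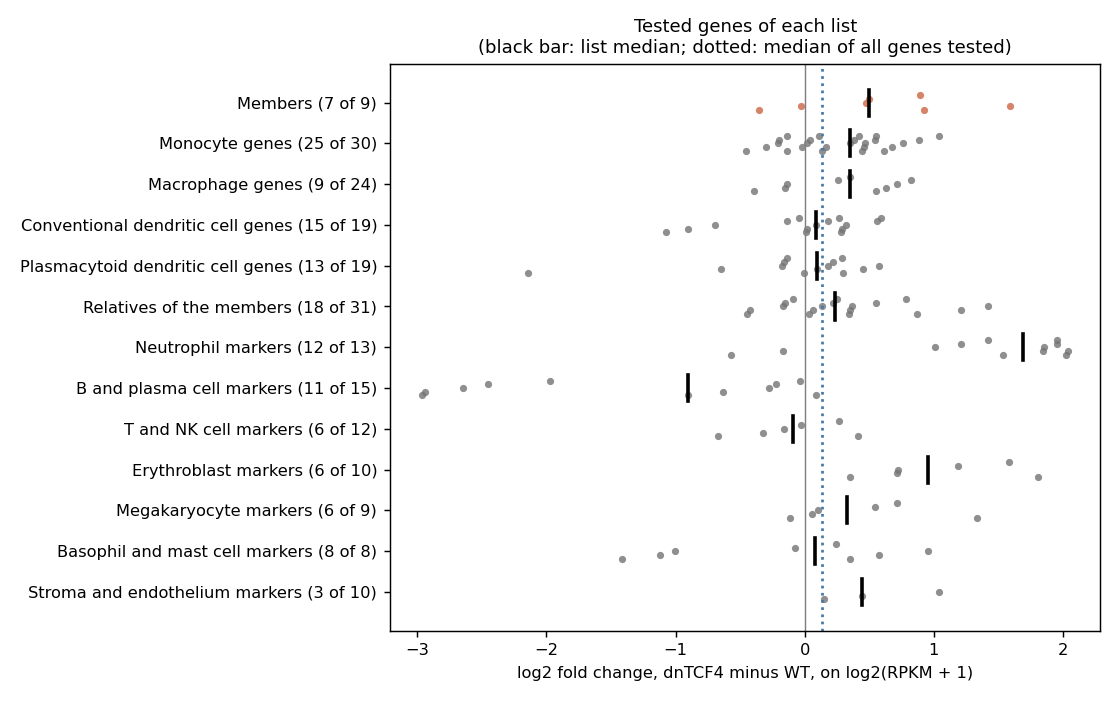
Log2 fold change (dnTCF4 minus WT, on log2(RPKM + 1)) of each tested gene, with 1 row per list, the number tested of the number listed in brackets, black bars for list medians and a dotted line for the median of all genes tested (0.14). The 7 tested members have a median of 0.50, neutrophil markers one of 1.69 and both dendritic cell lists medians of 0.09.

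Several plasmacytoid dendritic cell genes had their highest values in replicate 1, as Siglech did. Of 13 tested among 19, 7 were higher and 6 lower in dnTCF4. The median log2 fold change was 0.09, and 0 were called (1 higher and 1 lower at an unadjusted p under 0.05). After median ratio scaling the median was -0.12, with 5 higher and 8 lower. Replicate 1 was the highest library of its genotype in both genotypes for 6 of the 13 (Tcf4, Ccr9, Ly6d, Cox6a2, Pld4 and Tlr7), against 5.79% of all genes tested. Ccr9, a chemokine receptor of these cells, had 2.86, 0.271 and 0.289 RPKM in the WT libraries against 2.37, 0.406 and 0.319 in the dnTCF4 libraries. Ly6d, which is also carried by early B lineage cells, had 269, 115 and 120.0 RPKM in the WT libraries against 128, 17.1 and 17.9 in the dnTCF4 libraries (difference on the log2 scale -2.14, limma adjusted p = 0.45). Lair1, an inhibitory collagen receptor, averaged 12.8 ± 3.11 RPKM and 19.6 ± 4.21 in WT and dnTCF4 (limma adjusted p = 0.52), and Runx2, a transcription factor, 5.18 ± 0.749 and 7.67 ± 2.38 (limma adjusted p = 0.61). Tcf4, the E2-2 gene, averaged 8.64 ± 1.00 RPKM over WT and 7.80 ± 1.02 over dnTCF4 (difference on the log2 scale -0.13, limma adjusted p = 0.77). The same arrangement by replicate was found for 4 of 11 B and plasma cell markers and 4 of 6 T and NK cell markers, such as Lck with 59.9, 21.0 and 19.7 RPKM in the WT libraries against 50.4, 16.1 and 15.1 in the dnTCF4 libraries. It was found for 0 of 12 neutrophil markers. Replicate 1 is also the pair with Y-linked RNA, and sex, litter and handling of that pair cannot be told apart.

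**Figure D4:**
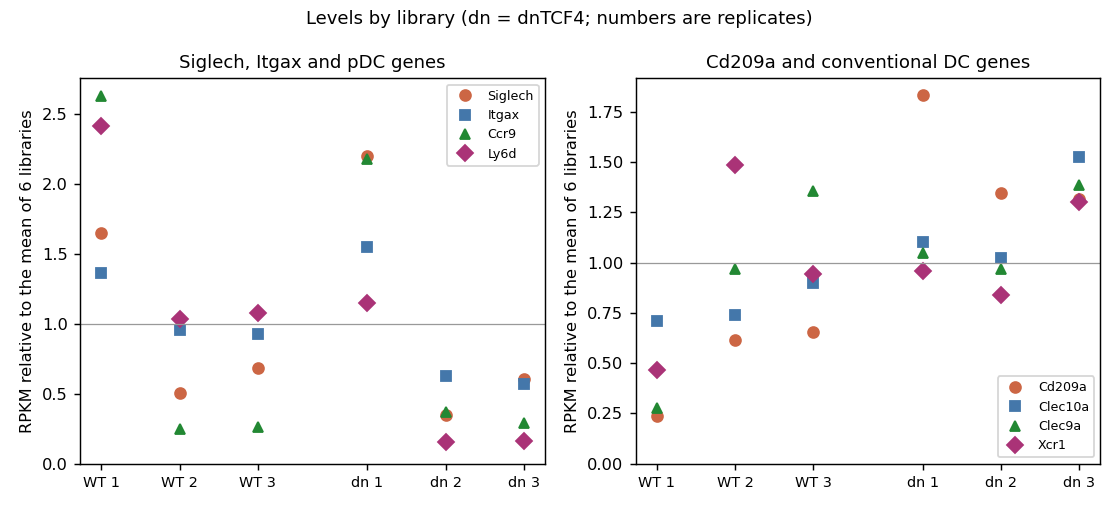
RPKM relative to the mean of the 6 libraries for Siglech, Itgax, Ccr9 and Ly6d (left) and Cd209a, Clec10a, Clec9a and Xcr1 (right), each point 1 library. Siglech, Itgax, Ccr9 and Ly6d are highest in replicate 1 of both genotypes, while Cd209a and Clec10a are higher in every dnTCF4 library than in any WT library.

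Relatives of the members by gene family differed among themselves. Of 31 relatives, 18 were tested, with 13 higher and 5 lower in dnTCF4. The median log2 fold change was 0.23, and 0 were called, with 4 higher at an unadjusted p under 0.05. The median was 0.03 after median ratio scaling. Ms4a4a had 1.26, 0.833 and 0.972 RPKM in the WT libraries against 2.12, 2.56 and 2.77 in the dnTCF4 libraries (difference on the log2 scale 0.79, limma adjusted p = 0.15). Ms4a6b and Ms4a6d, the copies closest to Ms4a6c by name, are counted with the monocyte genes and not among these relatives. They were at 26.1 ± 2.80 and 36.4 ± 5.84 RPKM and at 3.02 ± 0.365 and 5.19 ± 1.01 (limma adjusted p = 0.51 and 0.36). Siglece, an inhibitory lectin of myeloid cells, had 5.78, 1.74 and 2.75 RPKM in the WT libraries against 7.20, 5.75 and 6.66 in the dnTCF4 libraries (limma adjusted p = 0.47). Itgam, which encodes CD11b, another α chain of the β2 integrins beside CD11c, and is counted with the macrophage genes, was at 11.2 ± 1.72 and 8.46 ± 2.45 RPKM (limma adjusted p = 0.65).

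The genes whose profile over the 6 libraries was most like the mean standardised profile of the 7 tested members were 1600010M07Rik, 1110020A21Rik, Epb41l4aos, Mpdu1, Gm32031, Ndufv3, Snx31 and S100a4, with Pearson correlations of 0.991 to 0.997 on log2(RPKM + 1). All genes of a library share its depth and its immunoglobulin share, and 6 points give many genes a high value, so this is a description. S100a4, a calcium-binding protein of motile cells, had 11.8, 9.59 and 12.1 RPKM in the WT libraries against 26.4, 19.2 and 39.4 in the dnTCF4 libraries (difference on the log2 scale 1.22, limma adjusted p = 0.18). Mpdu1, an enzyme factor of protein glycosylation, lies 1570 bases from Cd68 on the same strand, with 1 annotated gene between them. It was at 35.6 ± 0.688 and 47.0 ± 4.55 RPKM (limma adjusted p = 0.52). Among pairs of members, Lyz2 and Cd68 had a correlation of 0.93, Cd68 and Ms4a6c 0.89, Lyz2 and Adgre1 0.88 and Adgre1 and Ly6c2 -0.74 over the 6 libraries.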

How the data were processed

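Poly(A) RNA (20 ng per library) of sorted cells was made into libraries with SMART-Seq v4 and Nextera XT kits, per the labels' protocols, while the series text names a SMARTer low input kit. The authors deposited 1 table of RPKM values, with 1 column per library. The submitters' processing notes name STAR, featureCounts, DESeq2, edgeR, mm10 and GRCm38, their roles, their versions and the annotation being not given in the sources used here. Each column was matched through the names in the sample descriptions. Coordinates and exon lengths come from GENCODE M21 (GRCm38; 49804 symbols matched) and promoters from RefSeq (GRCm38.p6; 8 of the 9 genes).

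RPKM times exon length fell on whole multiples of 1 step, within 0.02 of a read, for 95.0% to 95.6% of genes checked, which gave the depth. The binomial interval of the Lyz1 share covers counting error only, while the limma intervals rest on the spread between libraries. Libraries of a group differed beyond sampling noise (lowest chi-square per gene 137). The series text speaks of 3 mice per genotype.

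The limma test (version 3.58.1, R 4.3.3) ran on log2(RPKM + 1) for genes whose mean reached 1 RPKM (trend, two-sided, genotype only, Benjamini-Hochberg over all genes tested, called under 0.05), after a test on simulated data. Log2 fold changes are dnTCF4 minus WT, and for low genes they understate the change. Same-numbered libraries deviated together from their group means (correlation across genes 0.17, 0.35 and 0.30), and the numbers were taken to pair the samples. This is an assumption, since correlations between libraries of different numbers were not computed. The pairing enters the counts by pair and the replicate block. The main limma fit and the test of the Lyz1 share leave it out. The members, lists and tests were chosen with earlier results of these data known. Beside the 9 genes, the rule names up to 3 tested genes per list by smallest p, the sort genes, Tcf7l2 and the 8 genes most alike in profile; others were picked after their values were seen. Python 3.11.15, pandas 2.3.3, scipy 1.17.1 and matplotlib 3.10.9 were used. The alternatives were a replicate block, another pseudocount (0.1), other filters, median ratio scaling, immunoglobulin genes left out, library weights, leaving out libraries and voom on recovered reads.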

Additional observations from a re-analysis of the deposited data

How the results depend on the processing

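No member was called by limma or by voom under any of 15 alternatives, so 0 calls were lost or gained. Voom was added after the data were seen. With the replicate block, limma adjusted p was 0.11 for Adgre1 and Lyz2 and 0.20 for Cd209a. It was 0.32 for Cd68, 0.35 for Ms4a6c, 0.43 for Ly6c2 and 0.94 for Siglech. The replicate block raised the count of all called genes from 34 to 49 and changed no call of a member. Lyz2, Cd68, Adgre1, Ms4a6c, Cd209a and Ly6c2 kept their direction in each fit that tested them. Siglech turned from -0.03 to 0.57 with library weights, and its log2 fold change was -0.61 to 0.39 without 1 library each, positive without WT replicate 1 (0.36), dnTCF4 replicate 2 (0.39) or dnTCF4 replicate 3 (0.14). The count of 34 was 6 with no filter, 18 after median ratio scaling, 0 with immunoglobulin genes left out (603 at an unadjusted p under 0.05), 86 with library weights, 10 with replicates 2 and 3 only, 14 by voom and 7 to 34 without 1 library each (7 without WT replicate 1, 18 without WT replicate 3, and 22, 16 and 11 without dnTCF4 replicates 1, 2 and 3). In the other lists 2 genes, Ighm and Igkc, were called, against 0 with no filter, at a mean of at least 5 RPKM, with immunoglobulin genes left out and with replicates 2 and 3 only, 1 (Irf4) after median ratio scaling, 6 with library weights and 0 to 1 without 1 library each. The dnTCF4 minus WT difference in the Lyz1 share was -0.0135 percentage points, and -0.0247 to -0.00729 without 1 library each. A planned count test by quasi-likelihood was not run, since the table holds RPKM, and voom took its place. Lyz1 rests on 9 to 49 reads per library, which limits any statement on it.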
